A study of Mus musculus with 13 samples.

Results

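The endoplasmic reticulum (ER) folds the proteins that a cell secretes, and the acinar cell of the pancreas, which makes digestive enzymes, depends on it heavily. Transcript levels of 35 genes of this folding system and of the unfolded protein response were followed in the pancreas of 13 mice. The 35 genes were chosen by name, and all of them were found by Entrez identifier among the 23366 genes of the expression table. They comprise 9 lumenal chaperones and cochaperones, 4 protein disulfide isomerases, 2 lectin chaperones, 7 genes of ER-associated degradation, 4 genes of stress sensing, 6 genes downstream of the sensor PERK, and 3 genes of the translocon.

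All mice were females of the reprogrammable i4F-B strain. In this strain doxycycline switches on Oct4, Sox2, Klf4 and Myc (together OSKM) from a cassette inserted in the Pparg gene. The paper reports that expression of the cassette is uneven between cell types. The young group held 4 mice of 13 weeks and the old group 5 mice of 55 weeks, and neither received doxycycline. The old-OSKM group held 4 mice that received doxycycline for 7 days and then recovered for 2 weeks, and their labelled age is 58 weeks. No mouse received doxycycline without carrying the cassette, so the drug and OSKM cannot be told apart, and the cassette is also in every control. Each mouse gave one RNA-seq library of whole pancreas. Values are log2 RPKM (reads scaled to transcript length and to all mapped reads), quantile normalized by the authors, and the table gives no read counts. The study names one nominal read number for all samples, so the depth of each library is unknown.

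When unfolded proteins accumulate in the ER, the sensors IRE1, PERK and ATF6 are activated. IRE1 splices the mRNA of XBP1, PERK slows translation and favours synthesis of ATF4, and ATF6 is cut to release a transcription factor. XBP1 and ATF6 raise chaperones and degradation factors, while ATF4 acts on amino acid metabolism, CHOP and its targets. Part of this regulation acts on splicing, cleavage and translation, which gene-level RPKM does not measure.

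Promoter sequences are shown first because several members share a short element in them. RefSeq windows (GRCm38.p6, 250 bases before to 50 bases after a transcript start) were found for 30 of the 35 genes. No window was found for Atf6, Derl1, Hyou1, Manf and Sec61a1. The ER stress response element, searched on both strands as CCAAT, 9 bases of any kind and CCACG, was present in 9 of these 30 promoters. It was present for 0.169% of the 17736 genes of the table that have a window, the members included. The members were picked by name as genes of this response, so their higher share is a description and not a test. The 9 genes were Hspa5, Hsp90b1, Creld2, Dnajc3, Pdia6, Calr, Canx, Derl3 and Syvn1, and Hsp90b1 held 2 matches. The windows of 3 chaperone genes are printed to show where the element lies, with its fixed letters in capitals. Matches on the opposite strand appear as CGTGG and ATTGG.
Hspa5 (chr2:34771840-34772139, plus strand): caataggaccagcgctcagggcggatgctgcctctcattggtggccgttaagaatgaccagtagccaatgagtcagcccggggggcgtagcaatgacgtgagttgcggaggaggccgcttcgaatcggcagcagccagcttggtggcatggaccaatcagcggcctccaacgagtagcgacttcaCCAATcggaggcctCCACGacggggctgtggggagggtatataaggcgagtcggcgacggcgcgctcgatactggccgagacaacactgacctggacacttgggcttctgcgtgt
Hsp90b1 (chr10:86705395-86705694, minus strand): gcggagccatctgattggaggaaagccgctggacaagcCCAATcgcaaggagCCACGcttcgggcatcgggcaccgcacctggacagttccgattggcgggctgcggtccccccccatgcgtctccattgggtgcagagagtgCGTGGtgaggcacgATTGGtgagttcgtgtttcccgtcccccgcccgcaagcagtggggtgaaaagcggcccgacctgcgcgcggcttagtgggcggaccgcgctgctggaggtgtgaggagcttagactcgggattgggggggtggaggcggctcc
Creld2 (chr15:88819396-88819695, plus strand): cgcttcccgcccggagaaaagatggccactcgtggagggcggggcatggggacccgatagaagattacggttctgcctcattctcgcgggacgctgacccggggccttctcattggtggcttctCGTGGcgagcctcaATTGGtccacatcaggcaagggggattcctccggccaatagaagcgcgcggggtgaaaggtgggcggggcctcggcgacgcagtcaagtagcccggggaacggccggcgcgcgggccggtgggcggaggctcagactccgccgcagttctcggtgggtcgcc

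The matches themselves, read along the element, show how the 9 spacer bases differ between genes. Capitals mark the fixed letters, and coordinates are those of GRCm38.p6.
Calr (chr8:84847075-84847093): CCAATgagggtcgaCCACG
Canx (chr11:50325800-50325818): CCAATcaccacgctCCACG
Creld2 (chr15:88819520-88819538): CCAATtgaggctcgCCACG
Derl3 (chr10:75893242-75893260): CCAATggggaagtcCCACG
Dnajc3 (chr14:118937827-118937845): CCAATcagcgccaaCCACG
Hsp90b1 (chr10:86705533-86705551): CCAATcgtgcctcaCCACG
Hsp90b1 (chr10:86705638-86705656): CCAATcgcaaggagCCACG
Hspa5 (chr2:34772025-34772043): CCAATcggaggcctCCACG
Pdia6 (chr12:17266491-17266509): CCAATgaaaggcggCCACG
Syvn1 (chr19:6046532-6046550): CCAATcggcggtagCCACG

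The nearest base of the element lay 47 bases before the start in Hspa5 and 26 bases before it in Syvn1. The CCAAT pentamer alone, which is part of the element and was also searched on both strands, was present in 23 of 30 promoters and for 42.2% of all genes with a window. The UPR element, searched as TGACGTGG on both strands, was found in 0 of 30 genes and in 0.857% of all genes with a window. No match says only that these letters are not in these windows.

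A C/EBP-ATF response element, searched as TGATGNAA on both strands, was present in 4 of the 30 promoters and for 3.99% of all genes with a window. These were Asns, Chac1 and Trib3, 3 of the 6 genes downstream of PERK, and Herpud1. Since the members were picked by name, these shares too are a description. The windows of Chac1 and Trib3 are printed because these 2 genes had the largest differences between old and young mice among the 35, with the fixed letters in capitals. In Trib3 the match lies after the transcript start.
Chac1 (chr2:119350992-119351291, plus strand): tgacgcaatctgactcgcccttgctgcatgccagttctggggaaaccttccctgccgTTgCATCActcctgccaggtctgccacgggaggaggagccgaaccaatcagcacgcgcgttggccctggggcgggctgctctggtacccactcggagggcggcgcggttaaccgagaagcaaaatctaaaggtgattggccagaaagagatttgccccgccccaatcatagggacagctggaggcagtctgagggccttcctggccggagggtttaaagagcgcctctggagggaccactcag
Trib3 (chr2:152344011-152344310, minus strand): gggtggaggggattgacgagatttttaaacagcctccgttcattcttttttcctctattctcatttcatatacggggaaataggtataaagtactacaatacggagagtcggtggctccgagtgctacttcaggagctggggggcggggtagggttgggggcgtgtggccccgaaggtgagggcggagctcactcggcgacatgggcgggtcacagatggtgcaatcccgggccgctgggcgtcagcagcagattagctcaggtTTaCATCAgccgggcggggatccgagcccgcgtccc

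Before the groups were compared, the libraries were checked. The mean log2 RPKM of 20 acinar markers lay between 8.32 and 8.46 in every mouse, so the labelled tissue was present in all. The highest values are fixed by the normalization, and Ctrb1, which encodes chymotrypsinogen B1, was listed at 11.11 in every mouse. The library of old-OSKM mouse 4 stood apart, with a median correlation of 0.895 with the others over genes with a mean log2 RPKM over 0, against 0.960 to 0.982 for the other 12 libraries. Old-OSKM mouse 1 had the highest mean level of the 8 adipocyte markers (0.76, against -1.94 to -0.27 in the others) and of the 8 T cell markers (0.08, against -2.77 to -1.42). In bulk tissue, fewer cells of a type and less RNA per cell cannot be told apart.

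No member passed the call rule in any comparison, which asked of limma both a raw p below 0.01 and more than a 1.5-fold change. Between old and young mice 0 of 35 genes were called, against 0.886% of all genes. Between old-OSKM and old mice 0 of 35 were called, against 0.753% of all genes, and between old-OSKM and young mice 0 of 35, against 0.625%. At a raw p under 0.05 there were 2 members in the first comparison (5.52% of all genes), 0 in the second (8.07%) and 0 in the third (5.07%). With single mice left out, the first count ran from 0 (without young mouse 4) to 4 (without young mouse 3), and the other counts each reached 2 without old-OSKM mouse 4. No member had a Benjamini-Hochberg adjusted p under 0.05 by limma, a level that 0.0813%, 0.00428% and 0.0428% of all genes reached in the 3 comparisons. In no comparison were the groups free of overlap for any member, which 2.71%, 1.73% and 1.9% of all genes were. The comparisons share mice, since the old group enters the first 2 and the young group the first and the third, and the old-OSKM group the last 2.

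The intervals of the differences show what the data could still hold. The 95% interval lay wholly within a 1.5-fold change in either direction for 23 of 35 members between old and young mice, for 24 between old-OSKM and old mice and for 27 between old-OSKM and young mice. Among all genes these shares were 67.9%, 66.3% and 65.9%, and among the 8410 genes with a mean log2 RPKM over 0, which include 34 of the members, they were 88.8%, 85.9% and 86.7%. The median log2 difference of the members was -0.03 between old and young mice, 0.00 between old-OSKM and old mice and -0.03 between old-OSKM and young mice. The medians over all genes were 0.00, -0.04 and -0.04.

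**Figure D1:**
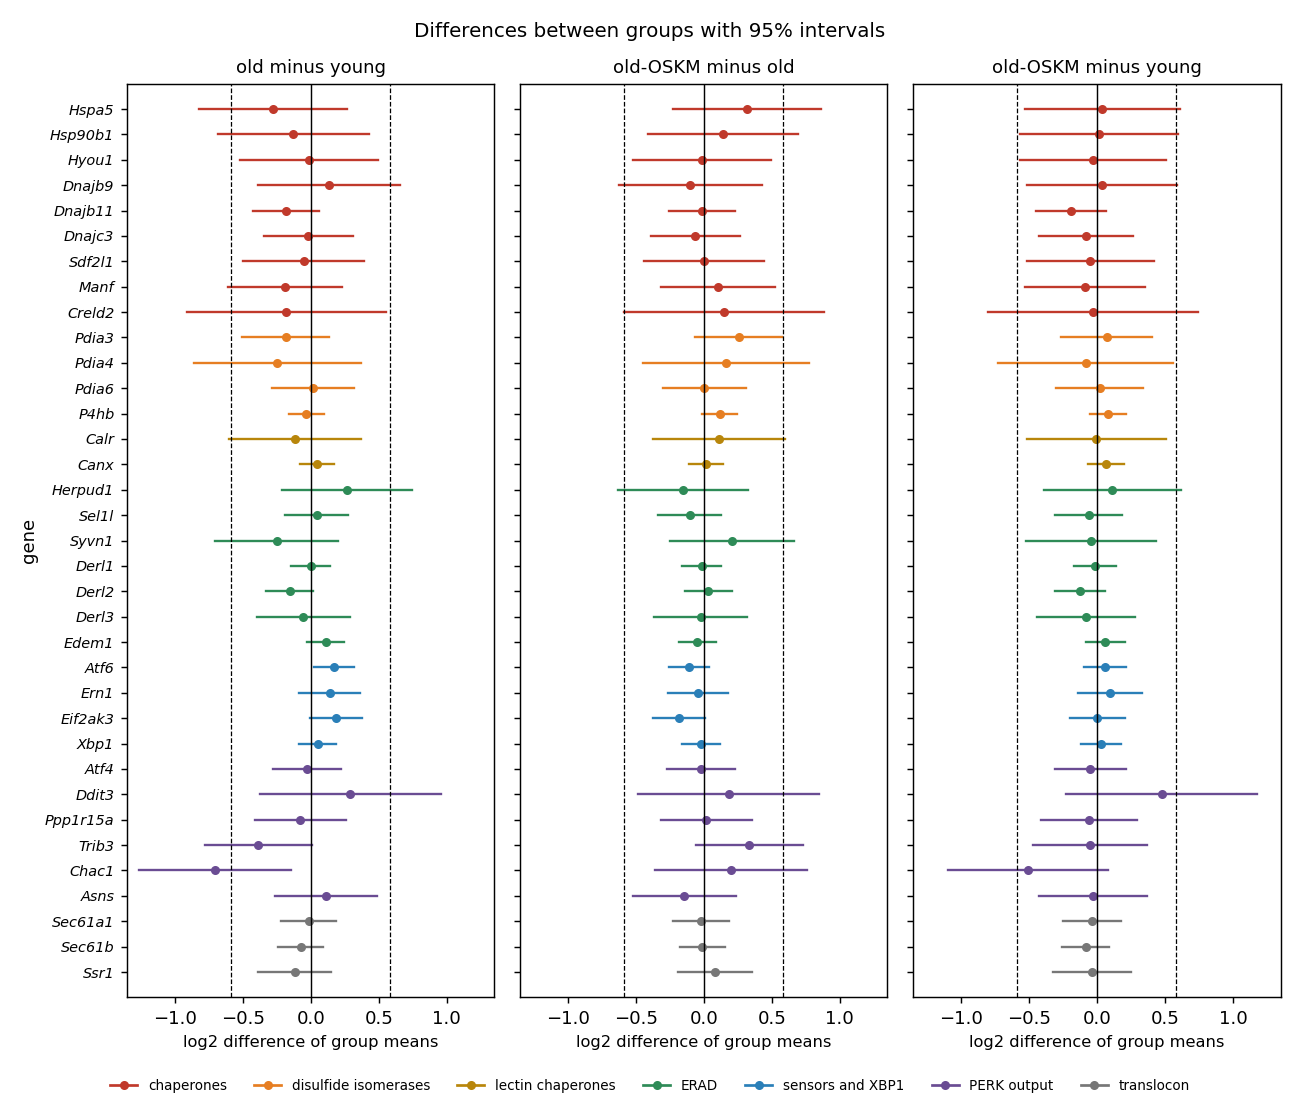
Log2 difference of group means (horizontal axis) for each of the 35 genes (vertical axis, coloured by role) in the 3 comparisons, with 95% intervals from limma; dashed lines mark a 1.5-fold change. Chac1 between old and young mice, at -0.71, is the only difference past a dashed line.

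The lumenal chaperones bind unfolded chains and keep them soluble. Hspa5 encodes BiP, the main Hsp70 chaperone of the ER, which also restrains the sensors. Its log2 RPKM was 5.97, 4.76, 5.35 and 4.95 in young mice 1 to 4. It was 4.91, 5.01, 4.90, 4.93 and 5.13 in old mice 1 to 5, and 5.33, 5.93, 4.84 and 5.08 in old-OSKM mice 1 to 4. Young mouse 1 and old-OSKM mouse 2 were high, and the old mice lay close together inside the range of both other groups. The difference between old and young mice was -0.28 (SE 0.248, limma, adjusted p = 1, 95% interval -0.82 to 0.26). Between old-OSKM and old mice it was 0.32 (SE 0.248, limma, adjusted p = 0.608, 95% interval -0.22 to 0.86), and without old-OSKM mouse 2 it was 0.11. Without young mouse 1 the difference between old and young mice was -0.04, and without young mouse 2 it was -0.44.

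Other chaperones showed the same mice at the top. Creld2, an ER-resident cochaperone of the response, was at 4.11, 2.75, 3.82 and 2.82 in the young mice. It was at 2.93, 2.96, 3.70, 3.0 and 3.38 in the old mice and at 3.43, 4.10, 2.90 and 2.94 in the old-OSKM mice. Its values spanned 2.57-fold over the 13 mice, with high and low mice in each group. Hsp90b1 encodes GRP94, the Hsp90 of the ER, and its mean was 4.56 ± 0.539 (SD, n = 4) for the young mice. For the old mice it was 4.43 ± 0.236 (SD, n = 5), and for the old-OSKM mice 4.57 ± 0.407 (SD, n = 4). Hyou1, a nucleotide exchange factor for BiP, had means of 3.85, 3.84 and 3.82 in young, old and old-OSKM mice. Manf, a secreted factor that binds BiP, had means of 3.22, 3.03 and 3.13. Sdf2l1, a partner of ER Hsp40 proteins, had means of 3.55, 3.50 and 3.50. In 8 of the 9 genes of this group, young mouse 1 and old-OSKM mouse 2 were both among the 3 highest of all mice, and in 6 of the 9 young mouse 3 was too.

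The Hsp40 cochaperones were less alike. Dnajb11, an Hsp40 partner of BiP, was at 4.08, 3.71, 4.10 and 3.84 in the young mice. It was at 3.66, 3.63, 3.85, 3.70 and 3.91 in the old mice and at 3.82, 3.96, 3.71 and 3.47 in the old-OSKM mice. The old-OSKM mice differed from the young by -0.19 (SE 0.117, limma, adjusted p = 0.706), or by -0.10 without old-OSKM mouse 4, and the groups overlapped. Dnajc3, which also inhibits PERK, had means of 4.12, 4.11 and 4.05 in young, old and old-OSKM mice. Dnajb9, an Hsp40 that represses IRE1, went its own way: it was highest in old mouse 5, at 3.60, against 2.31 to 2.61 in the other old mice.

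The disulfide isomerases form and rearrange disulfide bonds. P4hb, the classical protein disulfide isomerase, was at 6.08, 5.93, 5.97 and 5.86 in the young mice. It was at 6.02, 5.90, 5.93, 5.90 and 5.88 in the old mice and at 6.08, 6.11, 6.08 and 5.90 in the old-OSKM mice. Of the old-OSKM mice, 3 of 4 lay above every old mouse, and mouse 4 did not. The difference of 0.12 between these groups (SE 0.058, limma, adjusted p = 0.566) had a raw p of 0.0705. With single mice left out it ran from 0.09 to 0.16. It was 0.16 without old-OSKM mouse 4, with a raw p of 0.00921 by limma and a fold change still under 1.5. Over all alternatives the raw p ran from 0.00921 to 0.17 by limma.

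Pdia3 acts on glycoproteins together with the lectin chaperones. It was at 3.71, 2.99, 3.26 and 3.27 in the young mice, at 3.08, 3.04, 3.07, 3.07 and 3.35 in the old mice, and at 3.57, 3.58, 3.05 and 3.32 in the old-OSKM mice. The old-OSKM mice differed from the old by 0.26 (SE 0.146, limma, adjusted p = 0.608), with 2 of 4 old-OSKM mice above every old mouse. Pdia4 had means of 3.09, 2.85 and 3.01 in young, old and old-OSKM mice, with an SD of 0.565 among the young. Pdia6 was nearly level, with means of 3.92, 3.94 and 3.94. The lectin chaperone Calr (calreticulin) had means of 4.36, 4.24 and 4.35, and its membrane-bound relative Canx (calnexin) had means of 4.21, 4.26 and 4.27.

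ER-associated degradation moves misfolded proteins back to the cytosol for the proteasome. Derl2, a derlin of the degradation channel, was at 1.53, 1.27, 1.19 and 1.32 in the young mice. It was at 1.20, 1.12, 1.13, 1.19 and 1.23 in the old mice and at 1.29, 1.37, 1.10 and 1.06 in the old-OSKM mice. The old mice differed from the young by -0.16 (SE 0.0795, limma, adjusted p = 0.984), and without young mouse 1 the difference was -0.09. Syvn1, the ubiquitin ligase HRD1, had a young mouse 1 value of 3.54 against 2.53 to 2.64 in the other young mice. Its partner Sel1l had means of 5.48, 5.52 and 5.42 in young, old and old-OSKM mice. Herpud1, a membrane component of the same complex, reached 5.08 in old-OSKM mouse 4 and lay between 3.87 and 4.74 in the other 12 mice. Derl1 had means of 2.29, 2.29 and 2.28, Derl3 of 3.60, 3.55 and 3.53, and Edem1, which recognises trimmed mannose on misfolded glycoproteins, of 4.37, 4.48 and 4.44.

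The genes of stress sensing varied little. All 4 genes of stress sensing had a higher mean in old than in young mice, by 0.05 to 0.18. They had a lower mean in old-OSKM than in old mice, by differences of -0.18 to -0.02. Of all genes, 54.4% had a higher mean in the first of these comparisons and 36.9% in the second. The old mice are shared, and 1 of these 8 differences (Atf6, old against young) had a raw p under 0.05 by limma. Such a raw p was reached by 5.52% and 8.07% of all genes. Atf6 was at 2.44, 2.62, 2.47 and 2.39 in the young mice, at 2.68, 2.71, 2.64, 2.66 and 2.58 in the old mice, and at 2.51, 2.63, 2.66 and 2.37 in the old-OSKM mice. Of the old mice, 4 of 5 lay above every young mouse. The difference of 0.17 between old and young mice (SE 0.0672, 95% interval 0.02 to 0.32) had a raw p of 0.026 and an adjusted p of 0.781 by limma. Between old-OSKM and old mice it was -0.11 (adjusted p = 0.608 by limma), and without old-OSKM mouse 4 it was -0.05.

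Eif2ak3 encodes PERK. It was at 3.07, 2.96, 3.08 and 2.67 in the young mice, at 3.05, 3.16, 3.14, 3.19 and 3.11 in the old mice, and at 2.96, 3.05, 3.03 and 2.77 in the old-OSKM mice. The lowest values were those of young mouse 4 and old-OSKM mouse 4. The difference was 0.18 between old and young mice (adjusted p = 0.934 by limma) and -0.18 for old-OSKM against old mice (adjusted p = 0.552 by limma). Of the old mice, 4 of 5 lay above every young mouse. Both contrasts use the same 5 old mice, and the first was 0.09 without young mouse 4 and the second -0.12 without old-OSKM mouse 4.

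Ern1 encodes IRE1 alpha. It was at 1.86, 1.90, 1.87 and 1.81 in the young mice, at 1.91, 1.88, 1.94, 2.00 and 2.25 in the old mice, and at 1.82, 1.83, 1.87 and 2.29 in the old-OSKM mice. Old mouse 5 and old-OSKM mouse 4 were high. Of the old mice, 4 of 5 lay above every young mouse, with a difference of 0.14 (SE 0.102, limma, adjusted p = 1). Xbp1 was at 4.81, 5.02, 4.99 and 5.0 in the young mice, at 4.97, 5.02, 5.02, 4.96 and 5.06 in the old mice, and at 4.83, 4.97, 5.10 and 5.03 in the old-OSKM mice. Its 95% intervals were within 1.5-fold in the 3 comparisons, and the gene-level value does not separate its spliced and unspliced forms.

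**Figure D2:**
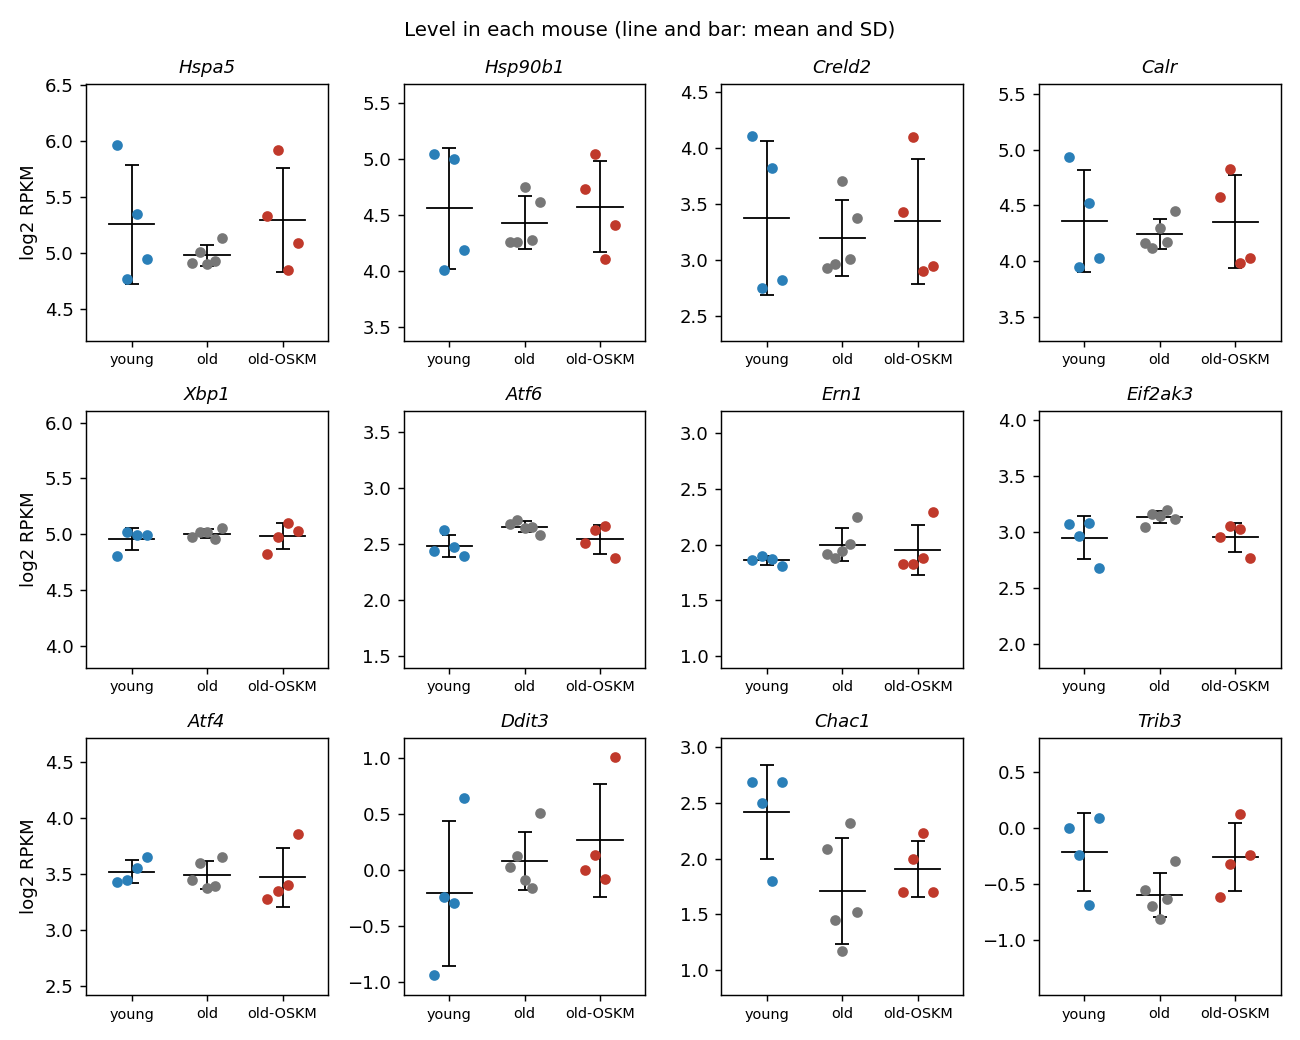
Log2 RPKM (vertical axis, of equal length in every panel) of 12 genes in the 13 mice by group; points are mice, the horizontal line is the group mean and the bar the SD. Hspa5, Hsp90b1, Creld2 and Calr spread widely within the young and old-OSKM groups, while Xbp1, Atf6 and Ern1 stay in a narrow band.

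Of the 6 genes downstream of PERK, Ddit3, Ppp1r15a, Trib3 and Chac1 had mean levels of 0.05, 0.90, -0.38 and 1.99 log2 RPKM, and Atf4 and Asns of 3.49 and 4.47. Atf4, the transcription factor whose translation PERK favours, was at 3.43, 3.44, 3.55 and 3.65 in the young mice. It was at 3.44, 3.60, 3.37, 3.39 and 3.65 in the old mice and at 3.28, 3.35, 3.40 and 3.86 in the old-OSKM mice. Its largest difference between groups was -0.05, between old-OSKM and young mice. Ddit3 encodes CHOP, a factor linked to death under prolonged ER stress. It was at -0.94, -0.25, -0.29 and 0.64 in the young mice, at 0.03, 0.12, -0.09, -0.16 and 0.51 in the old mice, and at 0.00, 0.13, -0.08 and 1.01 in the old-OSKM mice. The difference of 0.48 between old-OSKM and young mice (SE 0.319, limma, adjusted p = 0.706) was 0.23 without old-OSKM mouse 4 and also 0.23 without young mouse 1, and it was 0.76 without young mouse 4. With 1 added to RPKM before the logarithm it was 0.23, and with the run of sample identifiers in the model it was 0.81.

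Chac1, a glutathione-degrading enzyme induced through ATF4, had the largest difference of the 35 genes. It was at 2.68, 2.50, 1.80 and 2.69 in the young mice, at 2.08, 1.45, 1.17, 2.32 and 1.52 in the old mice, and at 1.70, 2.00, 2.23 and 1.70 in the old-OSKM mice. Of the old mice, 3 of 5 lay below every young mouse, and young mouse 3 was inside the range of the old. The difference between old and young mice was -0.71 (SE 0.255, 95% interval -1.26 to -0.15), with a raw p of 0.0175 and an adjusted p of 0.695 by limma. It met the call rule without old mouse 4 (-0.86) or without young mouse 3 (-0.91), with adjusted p of 0.49 and 0.366 by limma. Without young mouse 1 or young mouse 4 it was -0.62 and its raw p was over 0.05, and without old mouse 3 it was -0.57. Between old-OSKM and young mice it was -0.51 (adjusted p = 0.706 by limma).

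Trib3, a pseudokinase that is a target of ATF4 and CHOP, was at 0.00, -0.25, -0.69 and 0.09 in the young mice. It was at -0.55, -0.70, -0.81, -0.63 and -0.29 in the old mice and at -0.62, -0.32, 0.13 and -0.24 in the old-OSKM mice. The difference was -0.39 between old and young mice (adjusted p = 0.918 by limma) and 0.34 for old-OSKM against old mice (adjusted p = 0.605 by limma). The groups overlapped in both, and the second difference was 0.21 without old-OSKM mouse 3. With 1 added to RPKM before the logarithm these differences were -0.17 and 0.15. Asns, asparagine synthetase, was lowest in old-OSKM mouse 4, at 3.74, against 4.17 to 4.71 in the other mice. Ppp1r15a, the phosphatase subunit GADD34 that restores translation, had means of 0.95, 0.87 and 0.89 in young, old and old-OSKM mice.

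The translocon carries new chains into the ER. Its members Sec61a1, Sec61b and Ssr1 had differences between -0.12 and 0.08 in the 3 comparisons. Sec61b was lowest in old-OSKM mouse 4, at 3.54, against 3.72 to 3.95 elsewhere.

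The spread between mice of a group was large for many of the chaperones. The pooled within-group SD was over 0.3 log2 units for 13 of the 35 genes. In the chaperones, isomerases and degradation factors these were Creld2 (0.531), Pdia4 (0.442), Hsp90b1 (0.399), Hspa5 (0.392), Hyou1 (0.367), Calr (0.349), Syvn1 (0.326), Sdf2l1 (0.318) and Manf (0.301), with Dnajb9 (0.377) and Herpud1 (0.343). Downstream of PERK they were Ddit3 (0.48) and Chac1 (0.403). The median over the 8410 genes with a mean log2 RPKM over 0 was 0.154. Of the 35 members, 12 were in the highest 10% of these genes by within-group SD, and 10 were below their median, among them Canx (0.0781), P4hb (0.0794), Edem1 (0.087), Xbp1 (0.0879) and Atf6 (0.096). The share of a gene's spread over the 13 mice that lay between group means had a median of 8.39% over the members and was highest for Atf6 (42.7%).

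**Figure D3:**
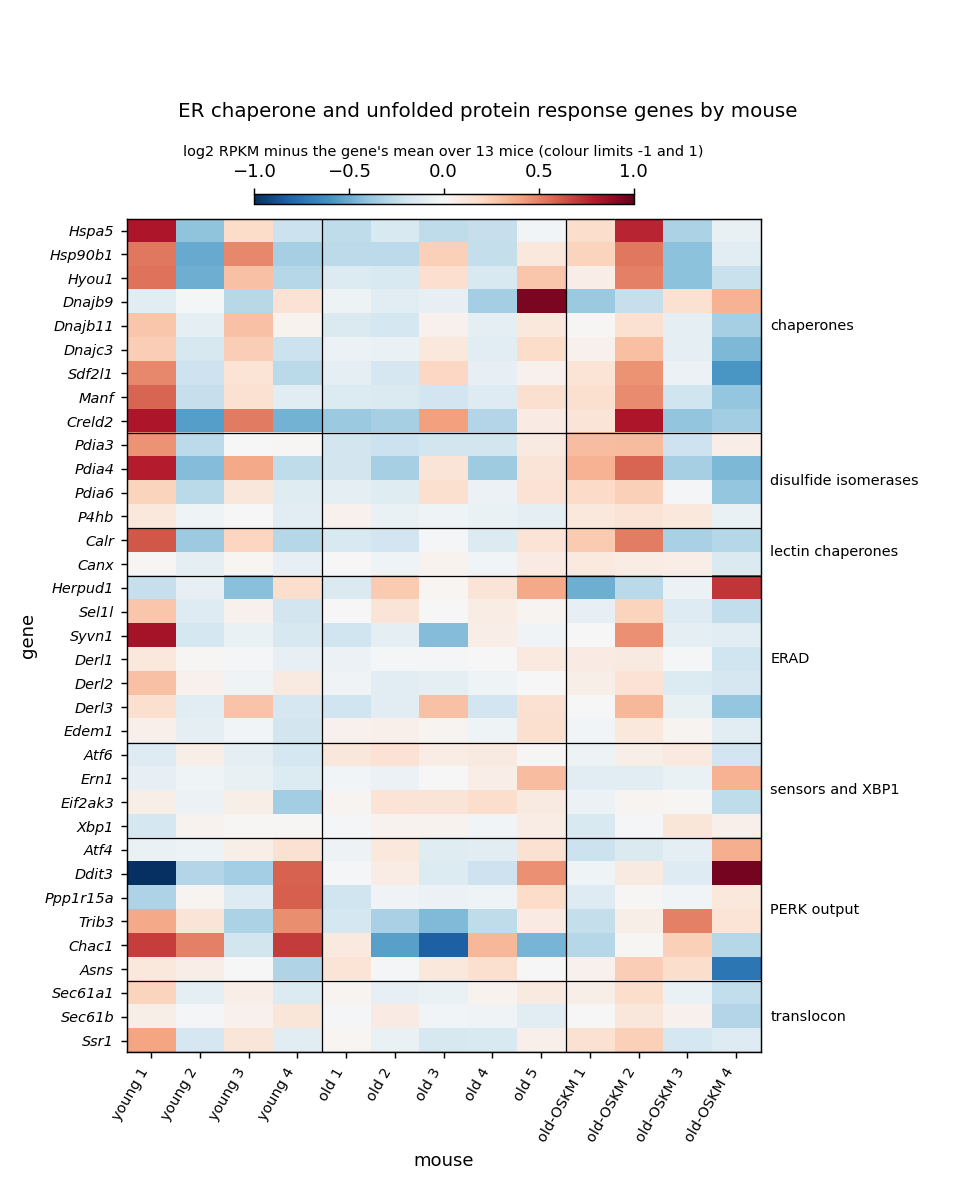
Log2 RPKM minus the gene's mean over 13 mice (colour, with values beyond -1 or 1 drawn at the limit) for the 35 genes by role (rows) in each mouse (columns, with lines between groups). Young mouse 1 and old-OSKM mouse 2 are high for most chaperones and disulfide isomerases, and old-OSKM mouse 4 is low for several of them.

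Part of the folding genes were high in the same mice as Hspa5. As a description over 13 mice from 13 libraries, Pearson's r with Hspa5 was over 0.8 for 9 of the other 34 members: Calr (0.929), Ssr1 (0.925), Manf (0.917), Pdia3 (0.897), Pdia4 (0.881), Syvn1 (0.881), Creld2 (0.855), Hyou1 (0.852) and Hsp90b1 (0.848). Spearman's rho for these ran from 0.693 for Pdia4 to 0.918 for Ssr1. The share of all genes with an r over 0.8 is not given here, so these counts are not set against other genes. With the group means removed, r was over 0.8 for 11 members, and without old-OSKM mouse 4 for 12. Without young mouse 1 and old-OSKM mouse 2, the 2 mice farthest from the median of Hspa5, it was over 0.8 for 4 members (Ssr1, Calr, Pdia3 and Hsp90b1), and the median r of the 34 members went from 0.588 to 0.184. It was then 0.665 for Creld2 and 0.438 for Syvn1. Leaving out the farthest mice also narrows the range of Hspa5, which can itself lower r. Of the other chaperones, Sdf2l1 (0.734), Dnajc3 (0.665) and Dnajb11 (0.656) had a lower r, and that of Dnajb9 was -0.23. Among the old mice the chaperones did not keep one order, since Hspa5 was highest in mouse 5, at 5.13, and Creld2 in mouse 3, at 3.70.

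Over the 13 mice, the 10 genes of stress sensing and PERK output had an r with Hspa5 between -0.62 for Xbp1 and 0.18 for Asns. It was -0.35 for Ddit3, -0.34 for Ppp1r15a, -0.32 for Atf6, 0.11 for Eif2ak3, and 0.13 for both Trib3 and Chac1. Without the same 2 mice the r of Ddit3 was 0.10, that of Ppp1r15a -0.16 and that of Xbp1 -0.50. Of the degradation genes, Herpud1 had an r of -0.41. In young mouse 1, which had the highest Hspa5, Ddit3 and Xbp1 were at their lowest of all mice. Among the old mice the order was another, and mouse 5 was the highest for Hspa5 and also for Ddit3, Atf4, Ppp1r15a, Trib3, Ern1 and Xbp1. It was not the highest for Eif2ak3, Chac1 and Asns, and it was the lowest old mouse for Atf6, at 2.58. The 8 genes with an ER stress response element in their window, Hspa5 left out, had a median r of 0.757 with a range of 0.377 to 0.929. The 21 genes with a window and no such element had a median of 0.183 with a range of -0.62 to 0.925. These 21 include 3 genes of stress sensing (Ern1, Eif2ak3 and Xbp1) and 6 PERK outputs. All 8 with the element are chaperones, isomerases, lectins or degradation genes. Among the 10 genes of those same roles without the element the median was 0.676, with a range of -0.41 to 0.897. Only the form with 9 spacer bases was searched, so genes counted as without the element may hold another form. The windows of Herpud1 and Dnajb11, counted as without it, hold the letters ATTGG, 1 base and CCACG. Without young mouse 1 and old-OSKM mouse 2 the medians were 0.462 for the 8 genes, 0.105 for the 21 and 0.169 for the 10. Within the same roles the ranges of r overlapped, and the difference between genes with and without the element was not tested. Pdia3 and Ssr1 had a high r without the element.

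**Figure D4:**
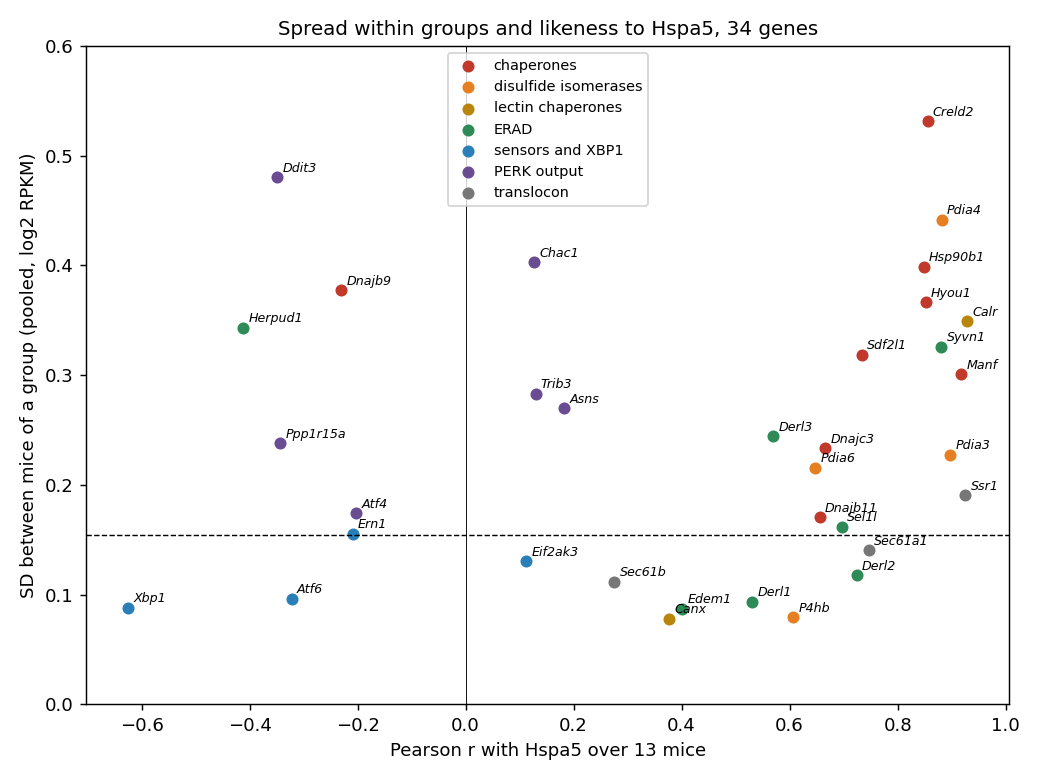
Pooled SD between mice of a group (vertical axis, log2 RPKM) against Pearson's r with Hspa5 over 13 mice (horizontal axis) for the other 34 genes, coloured by role; the dashed line is the median SD of genes with a mean log2 RPKM over 0 (0.154). Creld2, Pdia4, Hsp90b1, Hyou1 and Calr lie at the upper right, and Xbp1 and Atf6 at the lower left.

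Outside the 35 genes, those most like Hspa5 over the 13 mice were Lpin3 (r 0.962), Slc30a7 (0.934), Lman2 (0.900), Ubfd1 (0.899) and Preb (0.899). Lpin3 encodes a phosphatidate phosphatase, Slc30a7 a zinc transporter, Lman2 a lectin of the secretory pathway, and Preb an exchange factor for ER export. Without the 2 mice farthest from the median of Hspa5, r was 0.846 for Lpin3 and 0.629 for Ubfd1.

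In wider lists of the same pathways 0 genes were called. Of 20 further folding genes, 0 were called and 0 had a raw p under 0.05 in any comparison by limma. The largest difference between old and young mice in that list was that of Agr2, a disulfide isomerase of secretory cells, at 0.72 (SE 0.582, adjusted p = 1 by limma). It lay between -0.99 and 0.30 in young mice, between -0.03 and 0.88 in old mice, and at -2.22 in old-OSKM mouse 4 against 0.48 to 0.91 in the other old-OSKM mice. Of 18 further degradation genes 0 were called, and between old and young mice 2 had a raw p under 0.05 and were higher (Os9, 0.18, and Herpud2, 0.15) and 2 were lower (Edem2, -0.15, and Aup1, -0.12). In that comparison 3% of all genes had a raw p under 0.05 and were higher and 2.52% were lower. Aup1, a lipid droplet and degradation factor, also had a difference of -0.21 between old-OSKM and young mice (adjusted p = 0.334 by limma). Of 22 further translocon and glycosylation genes 0 were called, and Stt3a, a subunit of oligosaccharyltransferase, had a difference of 0.24 in old-OSKM against old mice (adjusted p = 0.547 by limma).

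Of 16 further sensors and regulators 0 were called, and Mbtps1, the protease that cuts ATF6, had a difference of -0.15 between old and young mice (adjusted p = 0.695 by limma). Of 24 further ATF4 targets 0 were called. Atf5, a factor of the same family, had a difference of 0.43 in old against young mice (adjusted p = 0.172 by limma), and its groups did not overlap. Slc7a11, the cystine transporter, had a difference of -0.56 in the same comparison (adjusted p = 0.614 by limma), a fold change just under 1.5. Of 20 cytosolic chaperones 0 were called, and Dnajb1, a heat shock Hsp40, differed by -0.31 in old-OSKM against old mice (adjusted p = 0.547 by limma).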

How the data were processed

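Pancreas RNA of 13 mice was sequenced after rRNA depletion with paired ends. The authors aligned reads with STAR 2.3.0e to mm10, estimated isoform RPKM with Casper, summed it per Entrez gene and quantile normalized it. The deposited values are log2 RPKM, and they were used as deposited, with no pseudocount and no filter. Counts and read totals per library were not used here, so no counting error is given. The 3 groups entered one model in R 4.3.3, using lmFit and eBayes of limma 3.58.1, two-sided and with one library per mouse. Calls needed a raw p below 0.01 and more than a 1.5-fold change. Adjusted p-values are Benjamini-Hochberg over all 23366 genes. The fit was tested on simulated data. The members and lists were chosen with earlier results of these data known. Values in every mouse are given for the 5 members with the smallest raw p in each comparison and for Hspa5, Xbp1, Atf6, Ern1, Eif2ak3, Atf4 and Ddit3, and for Creld2, chosen after its values were seen. Other lists name the genes of smallest raw p, and further genes were named after their values were seen. Gene positions and promoter windows come from RefSeq (GRCm38.p6). For 28 of the 31 windows of members, the transcript start used is the annotated gene start. Alternatives changed the groups in the fit, the moderation, a pseudocount of 1, a filter at a mean log2 RPKM of 0, the scaling, 2 covariates and the mice included. Figures were drawn with matplotlib 3.10.9 in Python 3.11.15.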

Additional observations from a re-analysis of the deposited data

Results flagged for a closer look

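In 8 of the 105 pairs of gene and group, the highest or lowest mouse stood far from the rest of its group by Dixon's criterion. Chance flags about 1 in 20 such pairs, or 5.25 here, and the genes are not independent. Old mouse 5 was high for Dnajb9 (3.60, against 2.31 to 2.61 in the other old mice), Manf (3.28, against 2.93 to 2.99) and Pdia3 (3.35, against 3.04 to 3.08). Old-OSKM mouse 4 was low for P4hb (5.90, against 6.08 to 6.11) and Canx (4.10, against 4.32 to 4.35), and high for Ern1 (2.29, against 1.82 to 1.87). Young mouse 1 was high for Syvn1 (3.54, against 2.53 to 2.64) and low for Xbp1 (4.81, against 4.99 to 5.02). All are log2 RPKM.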

How the results depend on the processing

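No paired analysis was possible because the labels number no replicates that could link mice of different groups. The number of members called stayed at 0 in 58 of 60 alternatives. Between old and young mice it ranged from 0 to 1 when each of the 13 mice was left out in turn, with Chac1 called without old mouse 4 (-0.86) or young mouse 3 (-0.91); the cause was not tested. Hspa5 between old-OSKM and young mice, 0.04 as reported, changed sign with the acinar markers as a covariate (-0.014) and ranged from -0.17 to 0.28 with mice left out, at -0.17 without old-OSKM mouse 2, -0.12 without young mouse 2 and -0.06 without young mouse 4; the cause was not tested. Ddit3 in the same comparison was 0.81 when the run of sample identifiers was added to the model. The identifiers of young mice 3 and 4 and of old mouse 5 lie apart from the rest, which include every old-OSKM mouse. Run and group are thus partly confounded, and the labels do not say what a run stands for. The number of members with a raw p under 0.05 ranged from 0 to 4, from 0 to 2 and from 0 to 2 in the 3 comparisons with mice left out. The members' median difference with mice left out ranged from -0.08 to 0.04 between old and young mice, from -0.05 to 0.08 between old-OSKM and old mice and from -0.11 to 0.07 between old-OSKM and young mice. Without read counts, the error of low genes such as Ddit3 and Trib3 was not split into counting and biological parts.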

Other observations

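Of 114 markers of cell types and of proliferation, 3 were called between old and young mice (2.63%, against 0.886% of all genes). Between old-OSKM and old mice 5 were called (4.39%, against 0.753%). Between old-OSKM and young mice 5 were called (4.39%, against 0.625%), namely Jchain, Cd79b, Ms4a1, Pou2af1 and Cd3g. These 5 belong to the B and plasma cell list and the T cell list. The mean levels of these lists were low, at -2.44 to 0.27 and -2.77 to 0.08 log2 RPKM in the mice. Among genes with a mean log2 RPKM over 0, 0.143% were called in this comparison. Between old and young mice, Jchain, which encodes the joining chain of secreted antibodies, was higher by 2.35 on the log2 scale, and the collagens Col1a1 (-0.93) and Col3a1 (-1.04) were lower, with adjusted p of 0.551, 0.469 and 0.511 by limma. Of the 10 B and plasma cell markers 8 had a higher mean in old mice and 2 a lower one, with a median difference of 0.92. All 10 had a higher mean in old-OSKM than in old mice (median 0.48) and than in young mice (median 1.42). All 8 T cell markers did too (medians 0.70 and 1.06). Against old mice 1 of the 10 and 1 of the 8 had a raw p under 0.05 by limma, and against young mice 5 and 3. Old-OSKM mouse 1 had the highest mean of both lists. Between old-OSKM and old mice, Col1a1 (0.88), Col1a2 (0.89), Thy1 (0.85), C1qc of macrophages (1.02) and Plin1 of adipocytes (1.53) were called, each with an adjusted p of 0.547 by limma. The means of the 8 adipocyte markers were 0.76, -1.69, -1.79 and -0.27 in old-OSKM mice 1 to 4, against -1.94 to -1.74 in the old mice, and those of the 9 macrophage markers were 2.12, 0.73, 0.84 and 1.67, against 0.24 to 1.00. Old-OSKM mice 1 and 4 were thus above the old mice in both lists, and mice 2 and 3 lay in or near their range. The 10 beta cell markers all had a lower mean in old-OSKM than in old mice, with a median difference of -0.65 and a range of -0.96 to -0.05. A raw p under 0.05 by limma was reached by 1 of them. Of all genes, 36.9% had a higher mean in that comparison and 8.07% had such a raw p. The means of these markers were 0.34, 1.45, 0.94 and 2.51 in old-OSKM mice 1 to 4, against 1.45 to 2.45 in the old mice. Old-OSKM mouse 4 was thus the highest of all 13 mice. Mice 1, 2 and 3 lay below every old mouse, mouse 2 only just (1.4534, against 1.4545 in old mouse 1). The mean of the 10 fibroblast markers was highest in old-OSKM mouse 4 (2.27) and young mouse 4 (2.04), against 0.90 to 1.77 in the other mice. With the acinar markers as a covariate, 0 members were called in the 3 comparisons, as without it. Their mean lay between 8.32 and 8.46 in every mouse, and 3 of the 20 markers had the same value in all mice. The highest values are fixed by the normalization, so this covariate cannot decide on the acinar share. The part of other cell types in the members' levels was not tested.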
